A study of Mus musculus with 6 samples.

Results

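The vacuolar H+-ATPase (V-ATPase) genes described here are 34 genes for the subunits of this proton pump, its accessory subunits and the factors that assemble and regulate it. They were taken as a list by symbol, with no measured value in the rule, and all 34 were found among the 55421 genes of the deposited count table. By role they comprise 13 genes of the V1 sector, 10 of the V0 sector, 2 accessory subunits, 4 genes of the RAVE/rabconnectin complex, 3 assembly factors of the endoplasmic reticulum and 2 TLDc domain proteins. RNA was sequenced from macrophages that had been differentiated in culture from mouse bone marrow, in 3 wild type (WT) samples and 3 samples of the genotype Tmem175flox/flox Lyz2-Cre+/-, labelled Tmem175-/- and called knockout (KO) here. In the latter, Cre recombinase is expressed from the Lyz2 gene, which is active in myeloid cells, and deletes the floxed part of Tmem175; the labels give no agent, time or age, and no group with Cre or floxed alleles alone was analysed here. The effects of Tmem175 loss, of Cre, of its place in Lyz2 and of strain background therefore cannot be told apart. The labels do not tie samples to separate animals or cultures, so the p-values reflect how these samples vary, and that variation may be technical.

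The V-ATPase hydrolyses ATP in its cytosolic V1 sector and turns a ring of proteolipids in its membrane V0 sector, which carries protons into endosomes, phagosomes and lysosomes. Several subunits are encoded by more than 1 paralog, and the choice of paralog differs between tissues: the kidney, the osteoclast, the testis and the brain each use their own. In macrophages the pump acidifies the lysosome and the phagosome, and its sectors come apart and reassemble as the demand for acid changes. The channel TMEM175, which conducts potassium and protons, sits in the same organelles and lets protons leak out of the lumen that the V-ATPase acidifies.

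Total counts ran from 24179548 to 31542741 per library. Tmem175 stood at 14.3, 13.2 and 12.1 CPM (counts scaled to library size with TMM factors) in the knockout and at 32.8, 33.4 and 33.2 CPM in the wild type libraries (log2 fold change -1.33, SE 0.07, adjusted p = 6.01e-05, edgeR's quasi-likelihood test), and Lyz2, the locus that carries Cre, fell by 0.89 on the log2 scale (SE 0.08, adjusted p = 0.00415). The macrophage markers Adgre1, Csf1r and Cd68 were high in all 6 libraries, with Cd68 between 1280 and 1410 CPM. On the leading principal component (33.8% of the variance), knockout replicate 1 (5.17) lay with wild type replicates 1 and 2 (12.3 and 9.66), and knockout replicates 2 and 3 (-12.3 and -7.20) lay with wild type replicate 3 (-7.58), so that this component did not follow genotype. Of the markers of other marrow cells, the summed level of 10 neutrophil genes was 798 to 858 CPM in the knockout and 468 to 690 CPM in the wild type libraries, with all 10 detected; 6 were higher and 1 was lower at an unadjusted p under 0.05, where 5.44% of all genes tested passed in either direction, and none was called. Several lists of other marrow cells lay the other way at the same unadjusted threshold. Lower were 5 of 6 tested mast cell and basophil genes (median log2 fold change -0.97) and 4 of 5 T, B and NK cell genes (-0.87). So were 4 of 5 erythroid and megakaryocyte genes (-0.52) and 2 of 8 dendritic cell genes (-0.36). Of 7 tested stromal and fibroblast genes, 0 were lower (-0.07). In these lists none was higher and none was called. What part these cells have in the V-ATPase values was not tested.

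Many genes of lysosomal biogenesis, V-ATPase genes among them, are known to be controlled by the MiT/TFE transcription factors TFEB, TFE3 and MITF through an E-box with the core CACGTG, known in its extended form as the CLEAR element. Because the results below turn on whether V-ATPase RNA moved together in the knockout, the promoter windows of the members that hold this core are shown. RefSeq windows on GRCm38.p6, from 250 bases before to 50 after an annotated start, were matched for 25 of the 34 genes. The core, which reads the same on both strands, was present for 6 of the 25, or 24% of them, against 8.09% of 27025 genes with a window. Among genes expressed highly enough to be tested it was present for 6 of 19 members (31.6%) and for 11.7% of 9941 genes. The longer form TCACGTGA, which contains the core, was present for 4 members (16%) and for 1.12% of all genes with a window. Of the genes tested, 4 of 19 members (21.1%) and 2.22% of 9941 genes held it. With a further G before and C after TCACGTGA, the match was present for 0 of the 25 members. Among all genes with a window, 0.37% held that longest form. All 6 genes with the core belong to the members that were expressed. A match is a description of the letters, and no binding was measured. Vma21 has a further core in the window of another annotated start, which is not printed. The windows are printed 5′ to 3′ on the strand of the gene with the core in capitals, and those of Atp6v0d1 and Atp6v0e run 5 and 11 bases past the annotated start while the others end at the base before it or earlier.
Atp6v1a, catalytic subunit A, chr16:44139328-44139447, minus strand: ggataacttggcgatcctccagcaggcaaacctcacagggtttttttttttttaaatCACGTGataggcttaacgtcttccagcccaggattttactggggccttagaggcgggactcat
Atp6v0b, proteolipid c″, chr4:117887330-117887422, minus strand: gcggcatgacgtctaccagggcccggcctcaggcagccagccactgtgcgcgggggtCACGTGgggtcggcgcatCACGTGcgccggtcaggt
Atp6v0d1, subunit d1, chr8:105566060-105566124, minus strand: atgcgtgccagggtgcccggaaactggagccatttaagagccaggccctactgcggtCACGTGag
Atp6v0e, subunit e1, chr17:26676342-26676406, plus strand: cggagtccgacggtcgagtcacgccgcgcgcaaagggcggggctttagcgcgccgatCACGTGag
Ccdc115, assembly factor, chr1:34439673-34439770, minus strand: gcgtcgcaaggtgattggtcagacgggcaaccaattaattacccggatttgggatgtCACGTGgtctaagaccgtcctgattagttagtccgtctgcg
Vma21, assembly factor, chrX:71816649-71816757, plus strand: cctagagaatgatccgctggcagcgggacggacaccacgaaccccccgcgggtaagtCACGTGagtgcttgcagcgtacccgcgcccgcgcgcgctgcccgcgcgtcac

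Macrophages of both genotypes held RNA for every V1 and V0 subunit, most of it at high levels. Of the 34 genes, 28 passed the filter on low counts, and these included at least 1 paralog of every V1 and V0 subunit listed, both accessory subunits and all assembly and regulatory factors. Levels compared between genes are given per length, as TMM-scaled CPM per kilobase of the union of a gene's annotated exons, and are means over all 6 libraries unless said otherwise. The median level of the 28 genes was 40.1, against 4.18 for all 13588 genes tested, and 14 of the 28 lay above the 90th percentile of all genes tested.

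**Figure D1:**
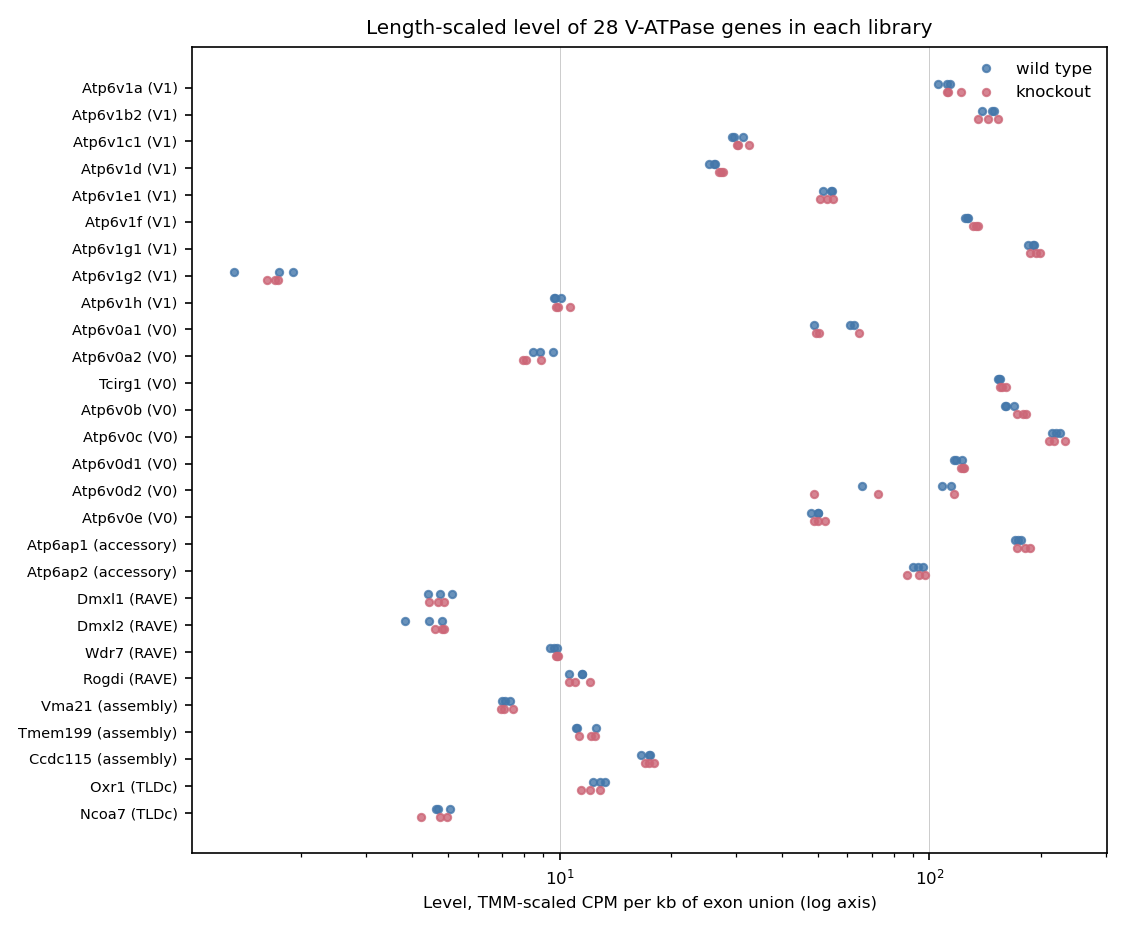
Length-scaled level (TMM-scaled CPM per kb of exon union, log axis) of the 28 tested V-ATPase genes, 1 point per library, wild type above knockout in each row. The core subunits lie above the RAVE, assembly and TLDc genes in most rows, Atp6v1g2 is lowest at 1.67, and the points of Atp6v0d2 spread most widely.

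In the V1 sector, the G subunit gene Atp6v1g1, part of the peripheral stalks, had the highest level per kilobase of exon union, 191 (range 185 to 199). It was followed by Atp6v1b2 at 145 (135 to 153), which encodes the non-catalytic nucleotide-binding subunit B, by Atp6v1f at 130 (125 to 135), a subunit of the central rotor stalk, and by Atp6v1a at 113 (105 to 122), the catalytic subunit. Among neighbours in this order, only the ranges of Atp6v1b2 and Atp6v1f touched, and they did so at the rounding shown. Subunit E, the partner of G in the stalks, stood at 53.1 for Atp6v1e1, subunit C at 30.5 for Atp6v1c1, the rotor subunit D at 26.6 for Atp6v1d and the regulatory subunit H at 9.96 for Atp6v1h. The order depended on the length used, first and last positions included. Per kilobase of the longest protein-coding transcript, Atp6v1b2 was highest at 272, followed by Atp6v1g1 at 191, Atp6v1f at 171, Atp6v1e1 at 166 and Atp6v1a at 161. On that scale Atp6v1c1 stood at 82.5, Atp6v1h at 47.4 and Atp6v1d at 33.4.

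In the V0 sector, the proteolipid c gene Atp6v0c, whose product forms most of the rotating ring, had the highest length-scaled level of all 34 genes, 220 (range 211 to 233). Next were the second proteolipid gene Atp6v0b at 171 (160 to 183) and Tcirg1 at 156 (154 to 161), which encodes subunit a3 of the lysosomal and osteoclast pump. These 2 ranges overlapped. Atp6v0d1, whose product couples the ring to the V1 rotor, stood at 121 and the small membrane subunit gene Atp6v0e at 49.8. Over the longest protein-coding transcript Atp6v0c stood at 630 and Atp6v0b at 350, and they remained the highest of the V0 genes. A processed pseudogene, Atp6v0c-ps2, matches Atp6v0c over 465 bases at 99.78% identity and was assigned 163 to 298 counts per library, so that reads of these genes may be split.

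The accessory subunits and the assembly machinery differed in level. Atp6ap1, whose product Ac45 sits in V0 and guides its assembly, had a length-scaled level of 177, and Atp6ap2, the (pro)renin receptor, one of 93.0. The RAVE genes, whose products bring V1 back onto V0, lay far lower: Rogdi at 11.2, Wdr7 at 9.73, Dmxl1 at 4.71 and Dmxl2 at 4.55. The ranges of the Dmxl paralogs, 4.40 to 5.12 and 3.82 to 4.86, overlapped on this scale. Over the longest protein-coding transcript Dmxl1 stood at 8.43 and Dmxl2 at 5.70. Without length Dmxl1 was at 96.5 to 112 CPM and Dmxl2 at 50.7 to 64.6 CPM. The mean of Dmxl1 was the higher on each scale, but its lead was small per kilobase of exon union. The endoplasmic reticulum factors that assemble V0 stood at 17.4 for Ccdc115, 11.8 for Tmem199 and 7.16 for Vma21. The TLDc genes, whose products bind the V-ATPase, stood at 12.5 for Oxr1 and 4.72 for Ncoa7.

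For the V1 subunits with several paralogs, 1 paralog supplied nearly all of the RNA in both genotypes. Atp6v1b2 gave 18573 to 25666 counts per library, whereas Atp6v1b1, the paralog of acid-secreting kidney cells, had 0, 0 and 1 counts in knockout and 1, 2 and 2 in wild type libraries. Atp6v1c2, known from kidney and lung, had 6, 0 and 0 counts in knockout and 0, 0 and 1 in wild type libraries. Atp6v1e2, the testis paralog, had a single count, in knockout replicate 1. None of these passed the filter, and in each case the other paralog held over 99.7% of the subunit's summed level in every library.

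Subunit G was the 1 V1 subunit with a second detected paralog. Atp6v1g2, known from neurons, stood at 4.28, 4.36 and 4.07 CPM in knockout and 4.38, 4.77 and 3.30 CPM in wild type libraries, which made 0.866% ± 0.0494 of the summed length-scaled level of subunit G in knockout and 0.869% ± 0.169 in wild type (SD, n = 3 each). The groups overlapped. Atp6v1g2 shares 144 exonic bases, 5.74% of its exons, with Nfkbil1 on the opposite strand, and since the strand setting of the counting is not given in the sources used here, part of its few reads may be those of Nfkbil1. Atp6v1g3, the kidney paralog, was listed at 0 in all 6 libraries, which allows up to 0.0952 to 0.125 CPM per library at 3 counts.

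In V0, subunit e was likewise supplied by 1 paralog, and subunits a and d were mixed. Atp6v0e2 had 1 to 5 counts per library. Atp6v0a4, the kidney paralog of subunit a, was listed at 0 in all 6 libraries. Tcirg1 (chromosome 19, 3896050 to 3907133) led subunit a with 71.5% ± 2.27 of its summed length-scaled level in knockout and 70.0% ± 2.34 in wild type (SD, n = 3 each). Atp6v0a1 (chromosome 11, 101009452 to 101063719), a form found on endosomes and lysosomes and abundant in neurons, held 24.7% ± 2.56 and 26.0% ± 2.70, and Atp6v0a2, a form of the Golgi and endosomes, 3.78% ± 0.334 and 4.07% ± 0.382. The length-scaled level of Tcirg1 was 2.45 to 3.19 times that of Atp6v0a1 and 16.1 to 19.8 times that of Atp6v0a2, depending on the library. The share of Tcirg1 was 1.53 points higher in knockout, less than the SD within either group (exact two-sided permutation test, p = 0.50, adjusted over 7 subunits p = 1; 3 against 3 libraries cannot give a p below 0.1).

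Subunit d was the subunit whose paralogs came closest to each other, and it varied most between libraries. Atp6v0d1 (chromosome 8, 105524465 to 105566047), the form found in all tissues, held 51.4%, 71.4% and 63.2% of the summed length-scaled level of subunit d in knockout and 50.5%, 52.2% and 65.0% in wild type libraries. The remainder was Atp6v0d2 (chromosome 4, 19876841 to 19922605), a form of osteoclasts and macrophages known for its part in osteoclast fusion. In 3 libraries, knockout replicate 1 and wild type replicates 1 and 2, the paralogs were nearly level, at 1.06, 1.02 and 1.09 times as much Atp6v0d1 as Atp6v0d2, and in the other 3 Atp6v0d1 was 1.72 to 2.50 times as high. Between genotypes the share of Atp6v0d1 was 6.13 points higher in knockout, with SDs of 10.1 and 7.94 points, and the groups overlapped (exact two-sided permutation test, p = 0.60, adjusted p = 1). For the subunits B, C, E, G and e the shares of the leading paralog differed by at most 0.0689 points between the genotypes, with exact p-values from 0.1 to 1. Counted as shares of reads without length, Atp6v0d1 held 52.2% of subunit d in knockout and 45.7% in wild type libraries, so that which paralog leads in wild type depends on the length used.

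**Figure D2:**
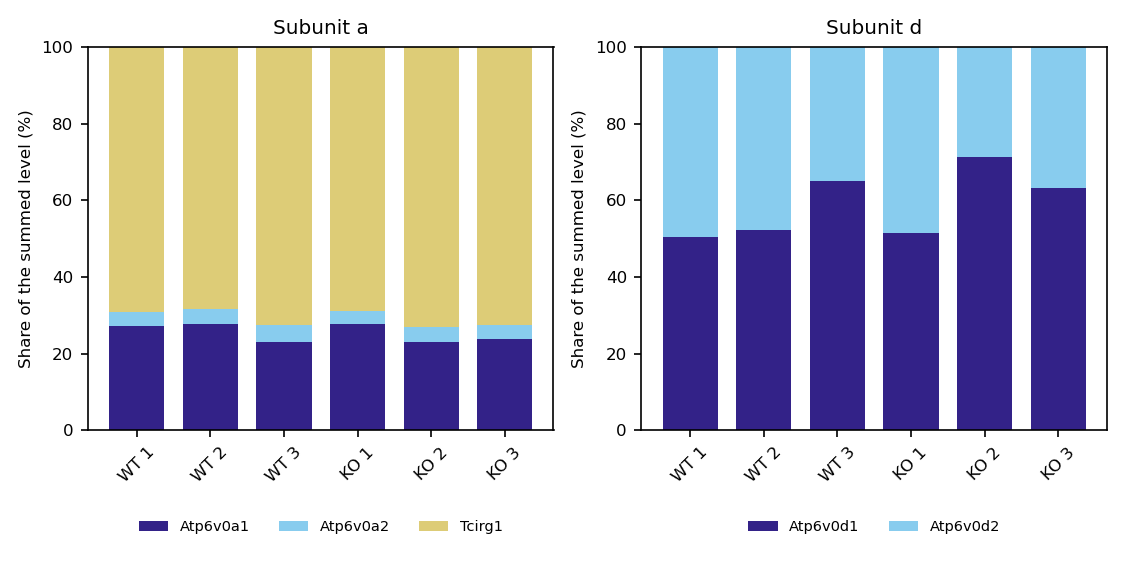
Share (%) of each detected paralog in the summed length-scaled level of subunit a (left) and subunit d (right), 1 bar per library. Tcirg1 takes 68.2% to 73.0% of subunit a in every library, while Atp6v0d1 ranges from 50.5% to 71.4% of subunit d.

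The values behind these shares show which paralogs moved. Atp6v0d2 stood at 316, 132 and 197 CPM in knockout and 311, 294 and 179 CPM in wild type libraries, a 2.40-fold range from the lowest to the highest library. Atp6v0a1 stood at 424, 323 and 330 CPM in knockout and 400, 411 and 319 CPM in wild type libraries. For both genes the same 3 libraries were the high ones, knockout replicate 1 and wild type replicates 1 and 2, and these are the libraries on the positive side of the leading principal component. By contrast, Atp6v0d1 was at 221, 218 and 223 CPM against 209, 212 and 220 CPM, and Tcirg1 at 741, 724 and 712 CPM against 711, 707 and 712 CPM. From the lowest to the highest library these leading paralogs varied by 1.07-fold and 1.05-fold, and Atp6v0a2, the least abundant of the detected a paralogs, by 1.21-fold.

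**Figure D3:**
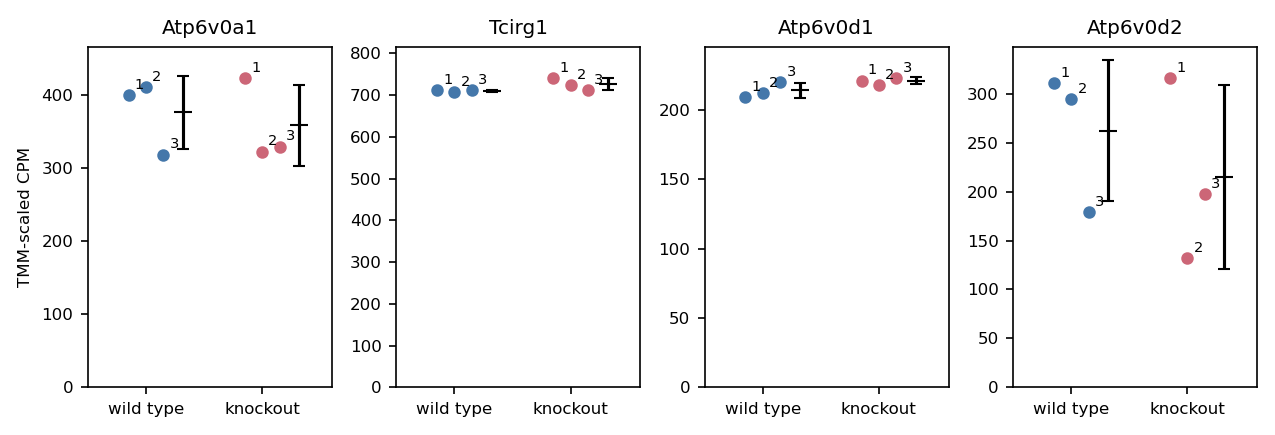
TMM-scaled CPM of the main paralogs of subunits a and d in each library, numbered by replicate, with mean and SD (n = 3) beside each group; every axis starts at 0. Knockout replicate 1 and wild type replicates 1 and 2 are high for Atp6v0a1 and Atp6v0d2, whereas Tcirg1 and Atp6v0d1 are nearly level over all 6 libraries.

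Atp6v0d2 is also a gene of osteoclasts, and markers of that cell type were read beside it. The summed level of 10 osteoclast markers was 343, 261 and 276 CPM in knockout and 320, 297 and 277 CPM in wild type libraries, highest in the same 3 libraries. Of the 7 tested markers, Acp5 and Itgb3 were high in those 3 libraries. Acp5, the tartrate-resistant acid phosphatase, was at 85.8, 48.5 and 56.9 CPM in knockout and 68.1, 75.4 and 52.9 CPM in wild type libraries. The other 5 tested markers did not follow that order: Ctsk was at 38.2 to 47.4 CPM, Nfatc1 at 67.6 to 72.2 CPM, Mmp9 at 28.6 to 52.1 CPM, Dcstamp at 3.00 to 4.97 CPM and Car2 at 0.476 to 0.945 CPM. Calcr was listed at 0 in all 6 libraries, and Oscar and Ocstamp lay below 0.3 CPM. Their part in the level of Atp6v0d2 was not tested. In bulk RNA, fewer cells of a type and less RNA per cell cannot be told apart.

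Against genotype, no V-ATPase gene passed the test. With edgeR's quasi-likelihood test, 0 of the 28 tested members passed an adjusted p under 0.05, where 0.103% of all genes tested did (0.0147% higher and 0.0883% lower), and their adjusted p-values ran from 0.881 to 0.998. At an unadjusted p under 0.05, 1 member was higher and 0 were lower, or 3.57% of them against 5.44% of all genes (2.40% higher and 3.04% lower). The DESeq2 Wald test and limma-voom also called 0 members. Log2 fold changes, knockout over wild type, ran from -0.28 to 0.13 and were below 0.1 in size for 24 of the 28. Their median was 0.03, with 19 positive and 9 negative, against a median of -0.00090 and 49.6% positive over all genes. With library totals in place of TMM as the scaling, the median of the members was 0.07 and that of all genes 0.04, and 23 of the 28 were then positive.

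The intervals limit how large a change could have gone unseen. For 25 of the 28 members the 95% interval of the fold change lay within 1.25-fold in both directions, and for 27 within 1.5-fold. The exceptions to the narrower bound were Atp6v1g2, which has few reads, Atp6v0a1 and Atp6v0d2, and Atp6v0d2 was the exception to the wider one. The standard errors of the members had a median of 0.0507 on the log2 scale, against 0.0868 over all genes tested. Summed over a sector, the length-scaled level of V1 genes was 709 ± 21.9 in knockout and 691 ± 12.1 in wild type (SD, n = 3 each), and that of V0 genes was 872 ± 51.6 and 869 ± 29.1. The ratio of the V1 to the V0 sum was 0.814 ± 0.0229 and 0.796 ± 0.0162, with overlapping groups.

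**Figure D4:**
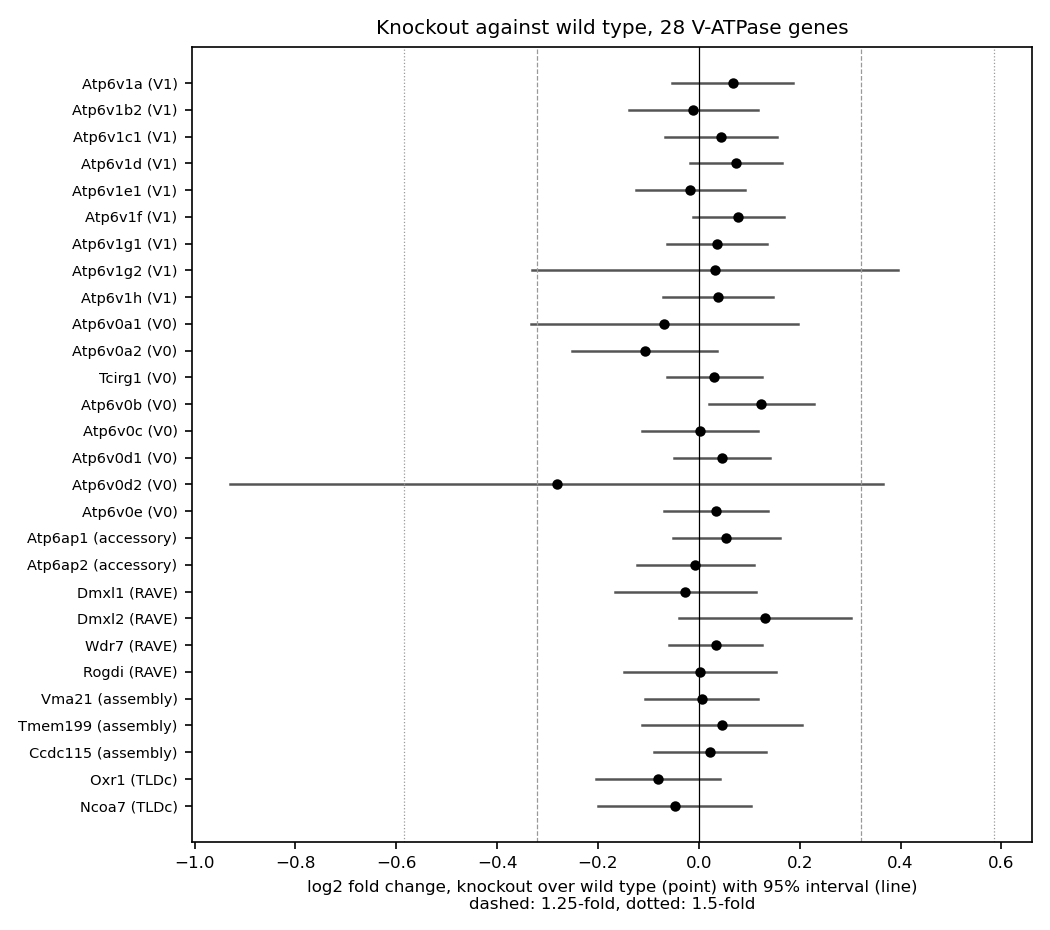
Log2 fold change of knockout over wild type (point) and its 95% interval (line) for the 28 tested V-ATPase genes from the fit over all genes; dashed lines mark 1.25-fold and dotted lines 1.5-fold. Atp6v0b is the 1 gene whose interval does not reach 0, and Atp6v0d2 has the widest interval.

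Atp6v0b, the proteolipid gene on chromosome 4 (117884326 to 117887333), had the smallest p of the members. It stood at 353, 367 and 375 CPM in knockout and 328, 331 and 347 CPM in wild type libraries. The groups did not overlap, and the log2 fold change was 0.12 (SE 0.05, 95% interval 0.02 to 0.23), 1.01-fold to 1.17-fold, with an unadjusted p of 0.0248 and an adjusted p of 0.881 in edgeR's test. It lost the unadjusted threshold without knockout replicate 3 and without wild type replicates 1 or 2. The other proteolipid gene, Atp6v0c, was at 789, 713 and 734 CPM against 743, 763 and 727 CPM, a log2 fold change of 0.0018 (SE 0.05).

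Groups also did not overlap for the rotor genes Atp6v1d and Atp6v1f. Atp6v1d was at 124, 127 and 126 CPM in knockout and 117, 121 and 120 CPM in wild type libraries (log2 fold change 0.07, SE 0.04), and Atp6v1f at 139, 142 and 144 CPM against 135, 133 and 134 CPM (0.08, SE 0.04). The count of 3 such members of 28, or 10.7%, is near the background, since the groups did not overlap for 10.8% of all genes tested, 5.73% with knockout higher and 5.06% with knockout lower. Neither gene passed an unadjusted p of 0.05.

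The other V1 genes lay closer still. The catalytic Atp6v1a was at 737, 680 and 673 CPM in knockout and 685, 674 and 636 CPM in wild type libraries, a log2 fold change of 0.07 (SE 0.05). Its partner in the hexamer, Atp6v1b2, was at 814, 718 and 763 CPM against 782, 793 and 738 CPM (-0.01, SE 0.06). The remaining stalk and regulatory genes Atp6v1c1, Atp6v1e1, Atp6v1g1 and Atp6v1h had log2 fold changes between -0.02 and 0.04.

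In V0, the log2 fold change of Atp6v0d2 was -0.28 (SE 0.29, 95% interval -0.93 to 0.37), and this value was set by single libraries. It was -0.67 without knockout replicate 1 and -0.02 without knockout replicate 2, with adjusted p-values of 0.462 and 1 in edgeR's test. That of Atp6v0a1 was -0.07 (SE 0.12), and -0.20 without knockout replicate 1. Atp6v0a2 was at 54.6, 59.9 and 53.4 CPM in knockout and 56.9, 59.5 and 64.5 CPM in wild type libraries (-0.11, SE 0.06). The leading paralogs Tcirg1 (0.03, SE 0.04), Atp6v0d1 (0.05, SE 0.04) and Atp6v0e (0.03, SE 0.05) had narrow intervals around 0.

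The accessory and assembly genes were as steady. Atp6ap1 was at 550, 522 and 566 CPM in knockout and 514, 526 and 536 CPM in wild type libraries (log2 fold change 0.05, SE 0.05), and Atp6ap2 at 255, 228 and 246 CPM against 251, 244 and 237 CPM (-0.0066, SE 0.05). Of the RAVE genes, Dmxl2 had the largest value, at 63.7, 64.6 and 61.2 CPM against 63.7, 58.8 and 50.7 CPM (0.13, SE 0.08). This value moved with single libraries, to 0.05 without wild type replicate 3 and to 0.21 without wild type replicate 1. Dmxl1, Wdr7 and Rogdi lay between -0.03 and 0.03, and the factors Vma21, Tmem199 and Ccdc115 between 0.0057 and 0.05. Oxr1 was at 91.6, 81.4 and 86.1 CPM in knockout and 94.5, 91.7 and 88 CPM in wild type libraries (-0.08, SE 0.05), and Ncoa7, the other TLDc gene, had a log2 fold change of -0.05 (SE 0.07).

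Partner genes of the V-ATPase were read from 4 lists. Of 13 tested proteins that bind or control the pump but are no members, none was called by edgeR; at an unadjusted p under 0.05, 0 were higher and 1 was lower, against 5.44% of all genes in either direction. The 3 with the smallest p were Tecpr2, known from autophagy (log2 fold change -0.20, adjusted p = 0.863), the TLDc gene Tbc1d24 (0.11, adjusted p = 0.932) and Tm4sf19 (0.25, adjusted p = 0.943). Of 18 tested genes for counter-ion and leak pathways, which balance the charge that the pump moves or let protons out, Tmem175 itself was the 1 gene called. The median of this list was 0.00094. At an unadjusted p under 0.05, Tmem9b was also higher (0.11, adjusted p = 0.908), a gene named after its value was seen.

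The regulators showed the same picture. Of 20 genes of lysosomal nutrient sensing and MiT/TFE control, 0 were called by edgeR, against 0.103% of all genes tested. At an unadjusted p under 0.05, 0 passed, against 5.44% of all genes tested in either direction. The median log2 fold change of the 20 genes was 0.03. The genes of the MiT/TFE factors had values near 0: Tfeb was at a log2 fold change of 0.00095, with 80.6, 70.5 and 69.8 CPM in knockout and 76.7, 73.7 and 70.5 CPM in wild type libraries, and Tfe3 and Mitf had log2 fold changes of -0.0073 and -0.04. The smallest p-values belonged to Akt1s1, an mTORC1 inhibitor (0.12, adjusted p = 0.918), Lamtor3, a Ragulator subunit that anchors mTORC1 near the V-ATPase (0.10, adjusted p = 0.918), and the Rag GTPase gene Rragd (0.13, adjusted p = 0.932). RNA of a transcription factor does not report its location or activity, which were not measured.

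Known CLEAR targets outside the V-ATPase were read in the same way. Of 20 genes, 0 were called by edgeR and 0 passed an unadjusted p of 0.05, against 0.103% and 5.44% of all genes tested. Of the 20, 11 were positive, and the median log2 fold change was 0.02. The smallest p-values belonged to Hexa, a subunit of beta-hexosaminidase (0.09, adjusted p = 0.954), and the lysosomal membrane genes Lamp2 (0.06, adjusted p = 0.968) and Cd63 (0.08, adjusted p = 0.968). These lists describe the same libraries as the V-ATPase genes, and no list was tested as a set.

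**Figure D5:**
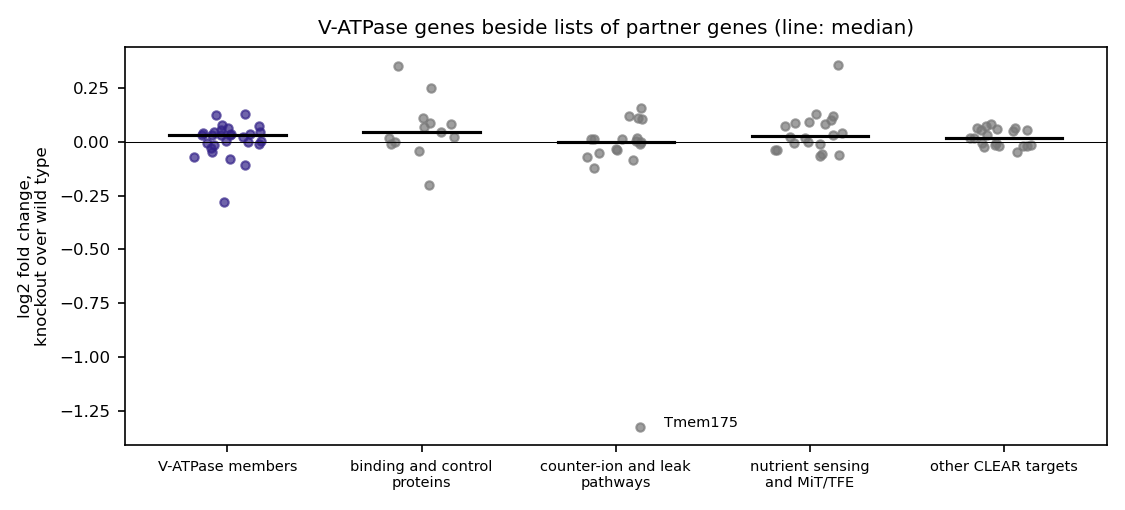
Log2 fold change of knockout over wild type for the tested V-ATPase members and for 4 lists of partner genes, 1 point per gene, with the median as a line. The medians lie between 0.00094 and 0.04, and Tmem175, in the list of counter-ion and leak pathways, stands apart at -1.33.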

How the data were processed

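The values are the authors' deposited raw counts, 1 per Ensembl gene and library, for 6 libraries. Per the submitters' processing notes, HISAT2 and featureCounts were used, with the build GRCm38. Not given in the sources used here: versions, annotation release, strand setting and the treatment of reads that match several genes. Per the labels' protocols, the library kit was a SMARTER mRNA-Seq kit. Symbols, positions and exon lengths came from GENCODE M21 on the same build; 181 IDs did not match.

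Knockout and wild type were compared over 13588 genes that passed filterByExpr, with TMM scaling and edgeR 4.0.16 (glmQLFit with default options, genotype as the only term; R 4.3.3), Benjamini-Hochberg adjustment over all genes and calls at an adjusted p under 0.05. Standard errors and 95% intervals were derived from the F statistic and its degrees of freedom, and intervals are not adjusted for the number of genes. The fit was tested on simulated data. Paralog shares were compared with exact permutation tests (scipy 1.17.1). The common biological coefficient of variation was 0.0744. Alternatives were other scalings (upper quartile, DESeq2 size factors, library totals), DESeq2 1.42.0, limma-voom (limma 3.58.1), bias-corrected quasi-dispersions, 2 other filters, a replicate block, other lengths and leaving out each library.

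The members and lists were chosen with earlier results of these data known, and no list was tested or adjusted on its own. Named by rule were the leading paralog of each subunit and any with at least 10% of its summed level, and members under 1 CPM. So were members at an unadjusted p under 0.05 and the accessory and assembly members. From each list the called genes or else the 3 with the smallest p were named. Other members are shown as well. Outside this rule are Lyz2 as a check of the labels, the cell type markers, the MiT/TFE genes, and copies and overlapping genes. Tmem9b, Tpcn1, Tpcn2, Rnasek and Atp6ap1l are also outside it. Copies were searched with BLAST 2.17.0 (at least 95% identity over at least 100 bases). No paralogs among the members matched each other at that level.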

Additional observations from a re-analysis of the deposited data

How the results depend on the processing

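No V-ATPase gene was called in any of the 15 alternatives, and the lowest adjusted p of a member was 0.435, without knockout replicate 1. The median log2 fold change of the members was 0.0742 with library totals and 0.0171 to 0.0370 without 1 library. At an unadjusted p under 0.05, 4 members were higher with library totals, 2 were higher (Atp6v0b and Dmxl2) and 1 lower (Atp6v0d2) without a filter, and 0 to 1 were higher and 0 to 2 lower without 1 library (Atp6v0d2 and Oxr1 lower without knockout replicate 1, Atp6v0a2 lower without knockout replicate 2). The higher one was Atp6v0b, except without wild type replicate 1, where it was Dmxl2 (0.207). Over all genes, the DESeq2 test called 10 higher and 30 lower, no filter 39 and 112, a mean of at least 10 CPM 0 and 5, and the fits without 1 library 0 to 2 and 4 to 10; the cause was not tested. Of the 28 members, 17 kept their sign in every alternative, and the 11 that did not had log2 fold changes of at most 0.0683 in size, none of them called. With upper-quartile scaling Vma21 was at -0.00112, Rogdi at -0.00477 and Atp6v0c at -0.00507; with library totals Atp6ap2 was at 0.0356, Atp6v1e1 at 0.0258, Atp6v1b2 at 0.0307 and Dmxl1 at 0.0157; Rogdi was at -0.00251 with limma-voom, Atp6ap2 at 0.00283 without a filter and Atp6v0c at -0.00052 with a mean of at least 10 CPM.

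Without 1 library the log2 fold changes of those members ran from -0.00262 to 0.0449 for Ccdc115, -0.0405 to 0.0385 for Atp6ap2, -0.0248 to 0.0289 for Vma21, -0.0430 to 0.0156 for Atp6v1e1, -0.0969 to 0.0197 for Ncoa7, -0.0562 to 0.0350 for Atp6v1b2, -0.202 to 0.00436 for Atp6v0a1, -0.0523 to 0.0452 for Rogdi, -0.0393 to 0.0354 for Atp6v0c, -0.109 to 0.144 for Atp6v1g2 and -0.0787 to 0.0289 for Dmxl1. The knockout minus wild type share ran from 0.672 to 2.87 points for Tcirg1, 1.41 to 11.4 for Atp6v0d1, -0.0703 to 0.0953 for Atp6v1g1, -0.114 to 0.0208 for Atp6v1c1, -0.0222 to 0 for Atp6v1e1 and -0.0168 to 0.0356 for Atp6v0e.

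The labels do not say whether the replicate numbers pair the libraries. The deviations of same-numbered libraries from their group means correlated at 0.149, -0.180 and 0.0603. Knockout replicate 1 correlated best with wild type replicate 2, at 0.163. Deviations from a mean of 3 libraries depend on each other, so these values cannot decide whether libraries were paired. With the replicate block, 3 genes were called higher and 14 lower, no member was called, and the share of Atp6v0d1 differed by 6.12 points (exact sign-flip test, p = 0.75, where 3 pairs cannot give a p below 0.25). Depth limits Atp6v1g2, with 83 to 135 counts per library, and the 6 members that did not pass the filter.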

Other observations

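Tpcn2 and Itgb3 were high in the same libraries as Atp6v0d2 and Atp6v0a1. Tpcn2, a lysosomal cation channel of the counter-ion list, stood at 89.7, 58.0 and 64.9 CPM in knockout and 85.5, 85.2 and 60.9 CPM in wild type libraries, whereas its paralog Tpcn1 was at 179, 167 and 157 CPM against 177, 164 and 161 CPM. Itgb3, an integrin chain of the osteoclast list, was at 82.2, 58.2 and 64.6 CPM against 96.6, 81.6 and 66.6 CPM. These genes were picked after their values were seen.

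Rnasek, described as a further small subunit of the V-ATPase, had 0.300 to 1.02 CPM. It is annotated inside a longer transcript on the same strand, Gm21988, so its level is uncertain in these counts. Atp6ap1l, a relative of Atp6ap1, was listed at 0 in all 6 libraries.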
